A study of Mus musculus with 8 samples.

Results

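The genes described here are 45 regulators of mitotic entry, mitotic exit and cytokinesis. They were chosen by name for their known function, with earlier results of these data known. All 45 were found, each in 1 of the 37310 gene rows shared by the files. The 8 poly-A RNA libraries, 2 per group, come from mouse embryonic stem cells and from a study that screened RNA helicases by RNAi. eIF4A3 is the helicase that anchors the exon junction complex, which marks spliced transcripts. In the J1 line (129S4/SvJae), the control carried a control knockdown and a control expression construct. By its labels, the group called labelled knockdown here carried the eIF4A3 knockdown and the control expression construct, and the group called labelled Ccnb1 the eIF4A3 knockdown and Ccnb1 overexpression. Ccnb1 encodes cyclin B1. The CCE line (129/Sv) gave only libraries labelled eIF4A3 knockdown, and no control of that line was analysed here. All groups shared feeder-free culture with leukemia inhibitory factor, transfection, lentiviral infection, selection in 1 µg/mL puromycin over 2.5 days and collection on day 4.5 after infection. The promoter of the expression construct and the knockdown sequence are not given in the sources used here. Nor do the labels say whether the 2 libraries of a group came from separate cultures. The p-values therefore measure only the spread between libraries, pooled over the J1 groups, and this spread may be technical.

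Cells enter mitosis when cyclin B bound to the kinase Cdk1 becomes active. Wee1 and Pkmyt1 hold that complex in check by phosphorylation, the Cdc25 phosphatases release it, and Plk1 tips the balance. The anaphase-promoting complex, a ubiquitin ligase, then ends mitosis by marking cyclins and securin for destruction, first with Cdc20 and later with Fzr1 (Cdh1). Aurora B and the centralspindlin proteins set up the cleavage plane, and condensins and topoisomerase II shape the chromosomes. Embryonic stem cells are known for a fast cycle with short gap phases. Many genes of the late cell cycle share 2 promoter motifs, the cell cycle genes homology region (CHR), read by the DREAM and MuvB complexes, and the CCAAT box, read by the factor NF-Y.

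These motifs were searched for in the RefSeq promoter windows of the GRCm38.p6 build, which run from 250 bases before to 50 bases after the annotated start. The deposited counts rest on the mm9 build, and a window was found for 34 of the 45 genes. A CHR was scored as TTTGAA or TTTAAA and a CCAAT box as CCAAT, each on both strands, so that TTCAAA and ATTGG are matches on the other strand. No match of one motif shared a base with a match of the other, 0 cases in the 34 windows. The 8 stretches of 70 bases below end at the base before the start, are written 5′ to 3′ on the strand of the gene with matches in capitals, and show the arrangement in genes of entry, exit, spindle and chromosome structure that were called in at least 1 comparison.
Plk1 (chr7:122159365-122159434, + strand): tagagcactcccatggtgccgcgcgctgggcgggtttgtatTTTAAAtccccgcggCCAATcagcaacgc
Cdc20 (chr4:118437344-118437413, - strand): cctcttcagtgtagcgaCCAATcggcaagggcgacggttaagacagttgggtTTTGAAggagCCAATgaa
Espl1 (chr15:102296223-102296292, + strand): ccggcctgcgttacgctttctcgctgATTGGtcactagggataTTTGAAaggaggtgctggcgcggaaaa
Ube2c (chr2:164769859-164769928, + strand): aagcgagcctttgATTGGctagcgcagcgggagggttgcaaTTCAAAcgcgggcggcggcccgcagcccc
Ccnf (chr17:24251410-24251479, - strand): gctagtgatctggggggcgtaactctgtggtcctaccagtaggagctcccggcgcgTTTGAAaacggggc
Kif11 (chr19:37376312-37376381, + strand): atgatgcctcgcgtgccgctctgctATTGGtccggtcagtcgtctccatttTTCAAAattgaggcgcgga
Top2a (chr11:99024190-99024259, - strand): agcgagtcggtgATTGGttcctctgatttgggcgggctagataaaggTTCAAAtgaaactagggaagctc
Ncapg (chr5:45669855-45669924, + strand): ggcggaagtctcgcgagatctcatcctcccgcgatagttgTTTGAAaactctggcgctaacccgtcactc
In Espl1 the CHR started at position -27 and the CCAAT box at -44, counting the base before the start as -1 and giving the first base of the match. In Plk1 the CHR lay at -29 and the CCAAT box at -14, so the order of the motifs differed between genes. Ccnf and Ncapg had a CHR, at -14 and -30, and no CCAAT box in the stretch shown.

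The next 4 stretches, from genes that were also called in a comparison, held neither motif.
Cdc25a (chr9:109875509-109875578, + strand): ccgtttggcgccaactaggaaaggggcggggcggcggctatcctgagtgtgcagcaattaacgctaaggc
Mybl2 (chr2:163054565-163054634, + strand): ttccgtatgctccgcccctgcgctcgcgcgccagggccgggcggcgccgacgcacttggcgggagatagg
Anapc4 (chr5:52834065-52834134, + strand): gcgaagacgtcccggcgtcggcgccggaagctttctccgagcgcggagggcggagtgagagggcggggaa
Cdc16 (chr8:13757586-13757655, + strand): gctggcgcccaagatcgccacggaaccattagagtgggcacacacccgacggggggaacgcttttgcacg
The full window of Cdc25a held CCAAT boxes at -131 and -81 and no CHR match. Over the 34 windows, 21 held a CHR (61.8%), against 27.8% of the 27025 promoters in the table. In 18 of the 21, a CHR match lay within 50 bases of the start. CCAAT boxes were found in 25 of the 34 windows (73.5%), against 37.9% of all promoters, and both motifs in 18 (52.9%), against 10.9%. By role, a CHR was found in 6 of 6 cytokinesis genes, 5 of 6 condensation genes, 4 of 5 spindle genes, 1 of 4 entry regulators and 0 of 5 subunits of the anaphase-promoting complex. Of 24 kinetochore and spindle checkpoint genes, 14 held a CHR (58.3%), and of 23 replication genes, 5 (21.7%). A match describes these letters only and is no evidence of binding.

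**Figure D1:**
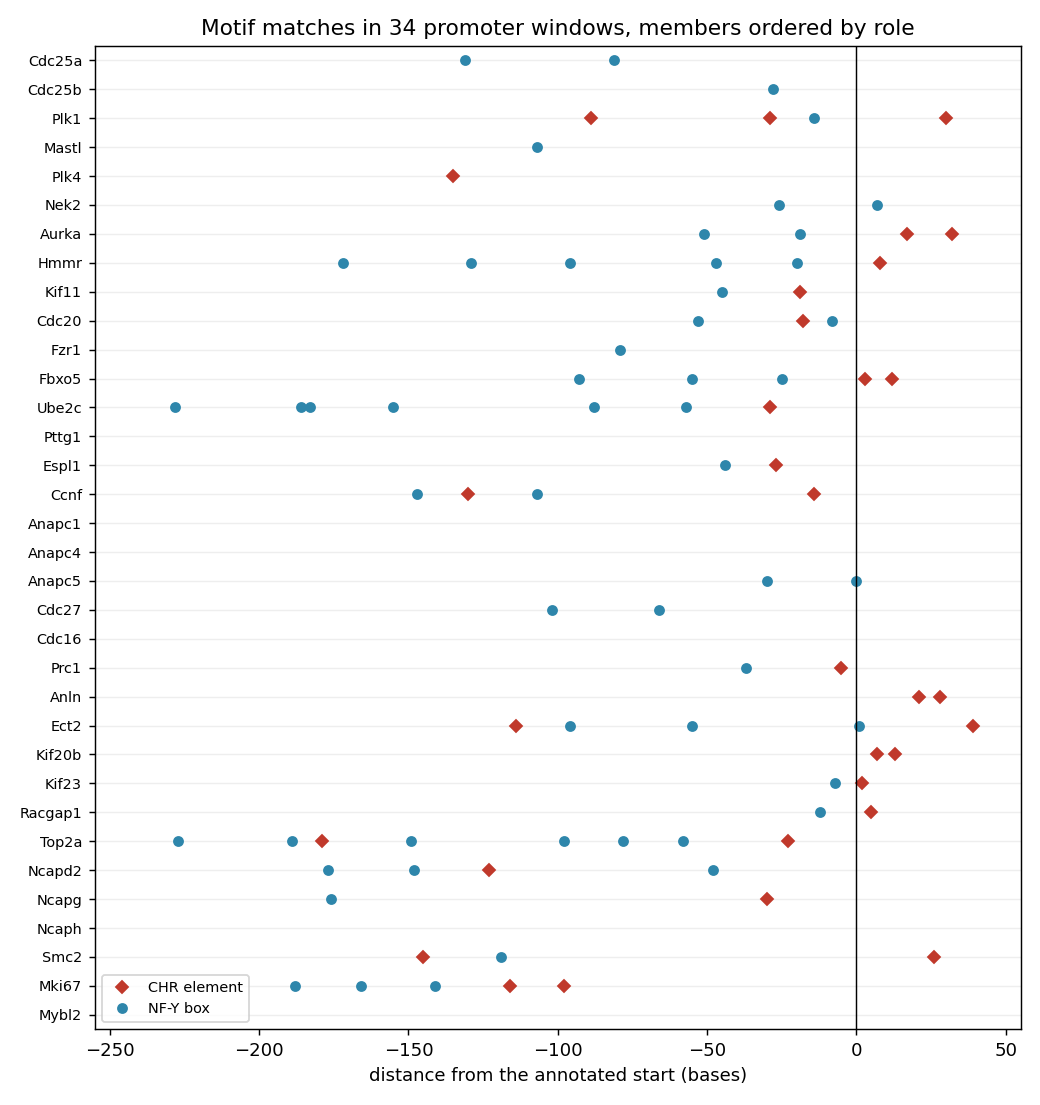
Distance of each motif match from the annotated start (x axis, in bases) in the 34 promoter windows (1 row per gene, ordered by role), with red diamonds for CHR elements and blue circles for CCAAT boxes (NF-Y box in the key). A CHR match lies within 50 bases of the start in 18 genes.

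Before the results, the libraries were checked. Gene counts ran from 5740965 to 8340023 in the control, were 4398141 and 3596615 in labelled knockdown, 5871830 and 6620504 in labelled Ccnb1, and 23965806 and 25573379 in CCE. Unaligned reads made up 40.8% and 45.2% in labelled knockdown against 15.7% to 15.9% in the other J1 libraries. The spread between the 2 libraries was 22 times Poisson noise in labelled knockdown, 3.41 times in control and 1.88 times in labelled Ccnb1. The tests below use a single estimate per gene over all J1 groups. Across genes, it understates the spread of labelled knockdown and overstates that of control and labelled Ccnb1. Eif4a3 stood at 73.5 and 83.7 counts per 1000000 gene counts (CPM) in the control pair, 75.7 and 37.5 CPM in the pair labelled knockdown, 47.3 and 53.5 CPM in the pair labelled Ccnb1, and 48.8 and 53.9 CPM in CCE. The first library labelled knockdown thus lay at the control level, and neither comparison with the control passed the test (edgeR adjusted p = 0.211 and 0.19). Ccnb1 was at 135 and 129 CPM in the control pair, 101 and 126 CPM in the pair labelled knockdown and 136 and 131 CPM in the pair labelled Ccnb1, and was not called in any comparison, so group names follow the labels alone. All 8 embryonic stem cell markers were called lower in labelled knockdown than in control, where 17.9% of all genes were. All 8 were called higher in labelled Ccnb1 than in labelled knockdown, where 22.8% of all genes were. Their summed level was 6987 and 7002 CPM in the control pair, 3706 and 3362 CPM in the pair labelled knockdown and 7397 and 7434 CPM in the pair labelled Ccnb1. In labelled Ccnb1 against control, 4 of the 8 were higher (50.0%, against 9.35% of all genes) and 1 lower (12.5%, against 10.5%). Nanog was at 915 and 953 CPM against 429 and 475 CPM in control, and Pou5f1 at 1080 and 1051 CPM against 1847 and 1879 CPM. The 8 fibroblast markers summed to 8.75 to 34.2 CPM in J1 libraries, and Col3a1, Dcn and Postn were at 0 in all of these. Col1a1 was at 14.3 and 17.2 CPM in the pair labelled knockdown against 1.39 and 1.08 CPM in the control pair. Thy1 overlapped between these pairs, at 6.37 and 17.0 CPM against 13.8 and 7.55 CPM. Acta2, Col1a2 and Lum were at 0 in the pair labelled knockdown. The part of these differences in the results below was not tested.

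Every member was detected in every library, with the lowest count, 41, for Wee1 in the second library labelled knockdown. All 45 passed the filter on low counts. The 2 libraries differed by more than 1.5 times in CPM for 12 members in labelled knockdown, 1 member in control and 0 members in labelled Ccnb1. Summed over the 45 genes, the level was 6427 and 6350 CPM in the control pair, 5887 and 6202 CPM in the pair labelled knockdown, and 7298 and 7437 CPM in the pair labelled Ccnb1. Per kilobase of transcript, Mybl2, a transcription factor of the S and G2 phases, led in each J1 group, at 193 ± 2.83 CPM per kb (SD, n = 2) in control. Ccnf followed at 103 ± 2.83, and the next 3, Aurka, Anapc5 and Cdc20, at 84.5 to 86 CPM per kb, overlapped each other. The lowest were Plk4, Pttg1 and Wee1, at 6.5, 5.7 and 4.63 CPM per kb, which overlapped too. In bulk RNA, fewer cells in a phase of the cycle and less RNA per cell cannot be told apart.

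**Figure D2:**
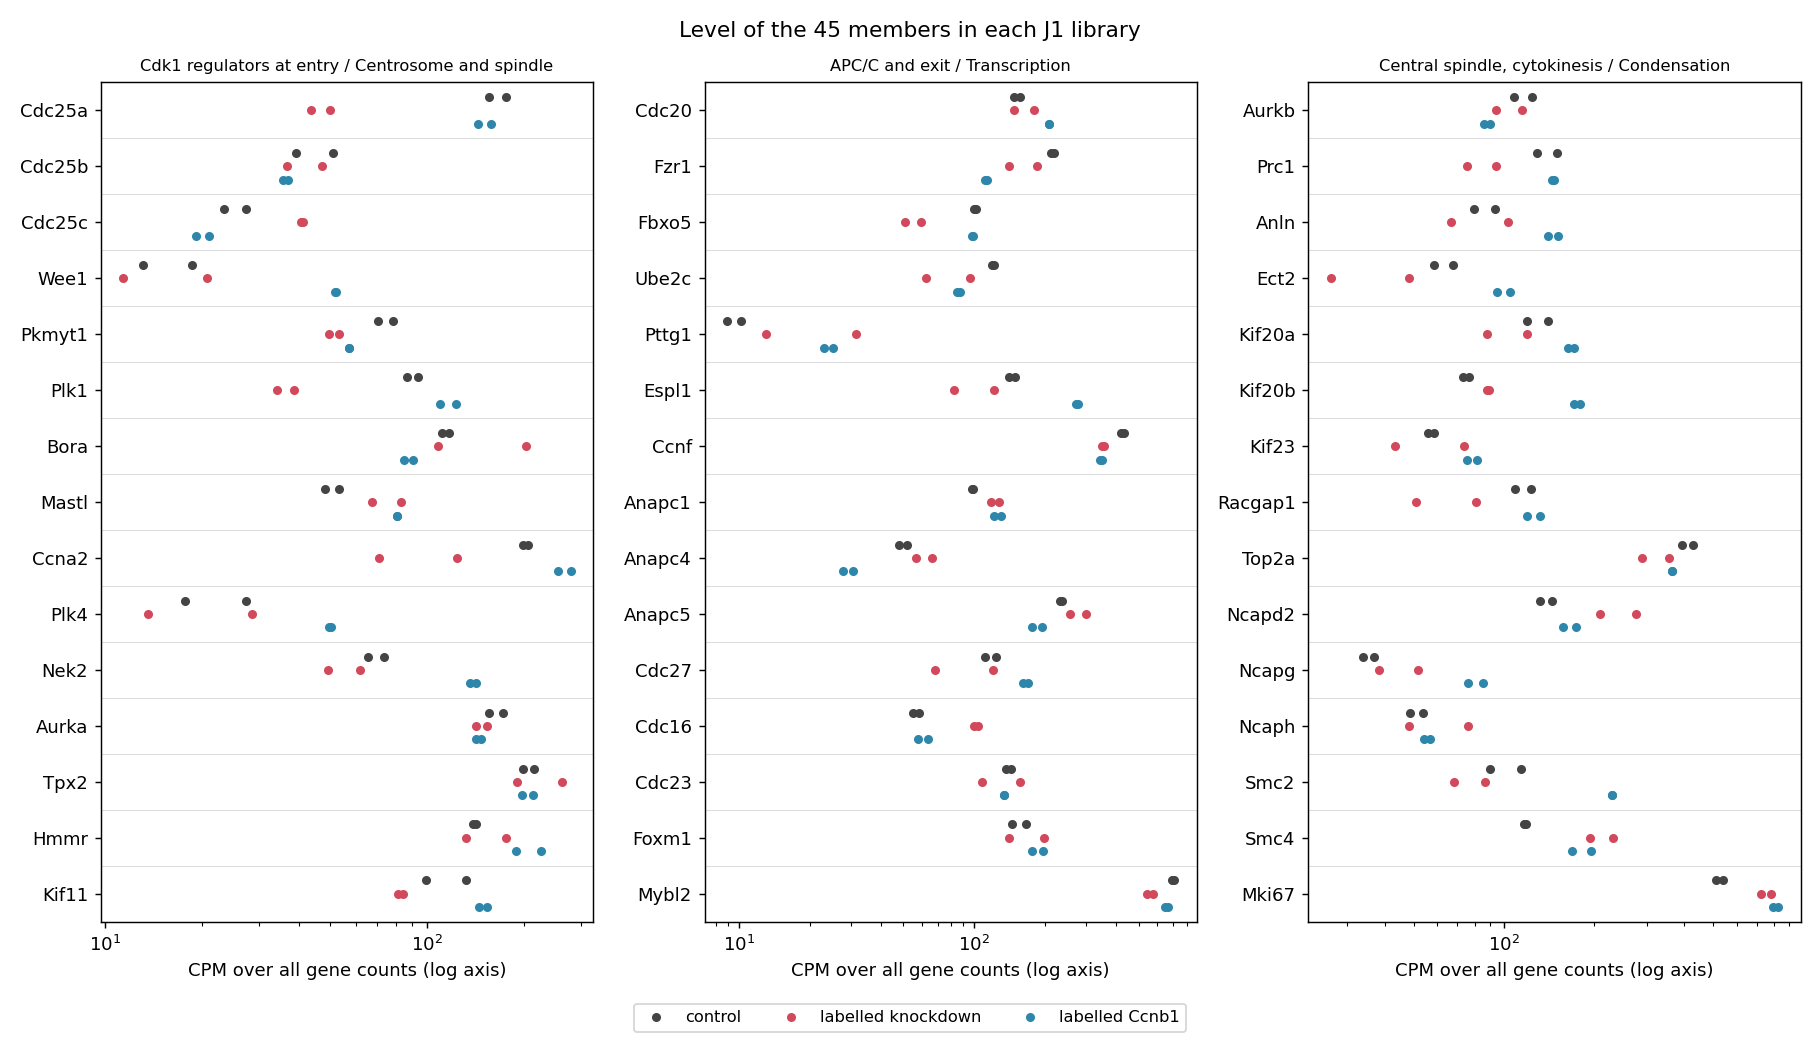
Level of each of the 45 genes in the 6 J1 libraries (x axis, CPM on a log axis; 1 point per library, coloured by group; the panels follow the roles). The 2 points of labelled knockdown lie farther apart than those of the other groups for many genes, and Cdc25a and Plk1 lie apart from both other groups.

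The first comparison set labelled knockdown against control. Of the 45 genes, 14 were lower (31.1%, against 17.9% of the 14462 genes tested) and 4 were higher (8.89%, against 11.0%), and 27 were not called. The lower genes included the Cdk1 activators Cdc25a and Plk1, cyclin A2, the inhibitor Fbxo5, and the central spindle genes Prc1 and Racgap1. Higher genes were the condensin subunits Smc4 and Ncapd2, the chromosome surface protein Mki67 and the complex subunit Cdc16. The median log2 fold change was -0.25, against -0.08 over all genes tested. Calls are at an adjusted p under 0.05 in edgeR's quasi-likelihood test, fold changes are TMM scaled, and the standard error (SE) is approximate.

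Among the 9 regulators of Cdk1 at entry, 4 fell (44.4%, against 17.9% of all genes) and 0 rose (against 11.0%). Cdc25a (ENSMUSG00000032477), a phosphatase that activates cyclin-dependent kinases, stood at 156 and 176 CPM in the control pair, 43.7 and 50.0 CPM in the pair labelled knockdown and 158 and 144 CPM in the pair labelled Ccnb1. Both libraries labelled knockdown lay far under the other 4 J1 libraries. Its log2 fold change was -1.99 (SE 0.14, edgeR adjusted p = 0.000725). Plk1 (ENSMUSG00000030867), the polo-like kinase, was at 93.9 and 86.7 CPM in the control pair, 34.1 and 38.6 CPM in the pair labelled knockdown and 123 and 110 CPM in the pair labelled Ccnb1. The 3 groups did not overlap, and the log2 fold change against control was -1.47 (SE 0.15, edgeR adjusted p = 0.00222). Reads of Plk1 can be split with the processed pseudogene Plk-ps1, at 93.5% identity over 1813 bases. With the counts of both added, the level was 153 and 150 CPM in the control pair and 76.2 and 101 CPM in the pair labelled knockdown (log2 fold change -0.93, edgeR adjusted p = 0.00924).

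Ccna2 (cyclin A2), which drives Cdk2 in S phase and Cdk1 before mitosis, stood at 205 and 198 CPM in the control pair and 124 and 70.9 CPM in the pair labelled knockdown. The libraries labelled knockdown lay below control but far from each other (log2 fold change -1.20 with SE 0.24, edgeR adjusted p = 0.0183). Pkmyt1, the membrane-bound inhibitory kinase of Cdk1, was at 70.2 and 78.3 CPM in the control pair and 49.6 and 53.1 CPM in the pair labelled knockdown (log2 fold change -0.69). The other inhibitory kinase, Wee1, overlapped between the groups, at 18.6 and 13.1 CPM against 20.7 and 11.4 CPM. Neither Cdc25b nor Cdc25c passed the test, at -0.26 and 0.53, and Cdc25c was the one of the 2 whose groups did not overlap, at 27.5 and 23.5 CPM in the control pair against 40.7 and 41.1 CPM. Bora, the cofactor for Plk1 activation, and Mastl, the Greatwall kinase, had log2 fold changes of 0.29 and 0.41 and were not called.

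Of the 6 centrosome and spindle genes, 1 fell (16.7%, against 17.9% of all genes). This was Kif11, the motor that pushes spindle poles apart, at 98.9 and 132 CPM in the control pair and 81.2 and 84.0 CPM in the pair labelled knockdown (log2 fold change -0.64, edgeR adjusted p = 0.0359). Aurka and the centrosome kinase Nek2 were below control in both libraries without passing the test, at -0.31 and -0.48. Tpx2, Hmmr and Plk4 overlapped between the groups.

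Among the 13 genes of the anaphase-promoting complex and its partners, 5 fell (38.5%, against 17.9% of all genes) and 1 rose (7.69%, against 11.0%). Fbxo5 (Emi1), an inhibitor of the complex, stood at 102 and 99.4 CPM in the control pair and 59.6 and 50.9 CPM in the pair labelled knockdown (log2 fold change -1.02 with SE 0.13, edgeR adjusted p = 0.00444). The control libraries and those labelled knockdown did not overlap. Ube2c, the ubiquitin-conjugating enzyme of the complex, was at 119 and 121 CPM in the control pair and 95.9 and 62.6 CPM in the pair labelled knockdown (log2 fold change -0.75). Espl1 (separase), which cuts cohesin, was at 149 and 140 CPM against 81.9 and 121 CPM (-0.67), and Fzr1, the late coactivator, at 213 and 218 CPM against 141 and 184 CPM (-0.57). Ccnf, cyclin F, showed a small difference with a tight spread, at 419 and 432 CPM in the control pair and 349 and 356 CPM in the pair labelled knockdown (-0.43, edgeR adjusted p = 0.00672).

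Cdc16, a subunit of the complex, was the one gene of its 13 to rise, from 58.5 and 54.7 CPM to 99.6 and 104 CPM (log2 fold change 0.69, edgeR adjusted p = 0.0172). The 5 other subunits in the set, Anapc1, Anapc4, Anapc5, Cdc27 and Cdc23, were not called and ranged from -0.47 to 0.17. Cdc20, the early coactivator, stood at 156 and 147 CPM in the control pair and 147 and 179 CPM in the pair labelled knockdown, which overlapped. Its pseudogene Gm7856, at 93.7% identity, held 131 and 109 CPM in the control pair and 69.1 and 102 CPM in the pair labelled knockdown, and 0.0417 and 0.0782 CPM in CCE. With both added, the log2 fold change was -0.28 (edgeR adjusted p = 0.196). Pttg1 (securin), which holds separase inactive, had the largest positive log2 fold change in the set, 1.06, and was not called, with its libraries labelled knockdown at 13.0 and 31.4 CPM.

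Of the 8 cytokinesis genes, 2 fell (25.0%, against 17.9% of all genes). Racgap1, a subunit of centralspindlin, stood at 109 and 123 CPM in the control pair and 50.9 and 80.9 CPM in the pair labelled knockdown (log2 fold change -0.97, edgeR adjusted p = 0.0311). Prc1, which bundles the microtubules of the central spindle, was at 151 and 129 CPM against 75.3 and 94.0 CPM (-0.88, edgeR adjusted p = 0.0112). Both genes were lower in each library labelled knockdown than in each control library. Ect2, an exchange factor that acts at the division plane, had a similar value, -0.90, but its libraries labelled knockdown were at 48.4 and 26.4 CPM, and it did not pass the test (edgeR adjusted p = 0.0671).

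Chromosome condensation genes moved in both directions, with 3 of 7 higher (42.9%, against 11.0% of all genes) and 1 lower (14.3%, against 17.9%). Smc4, one of the ATPases at the core of condensin, rose from 119 and 117 CPM to 231 and 194 CPM (log2 fold change 0.70, edgeR adjusted p = 0.0115). Its partner Smc2 was at 114 and 89.8 CPM in the control pair and 86.6 and 68.1 CPM in the pair labelled knockdown, and its log2 fold change of -0.54 did not pass (edgeR adjusted p = 0.0557). Ncapd2, a regulatory subunit of condensin I, rose from 145 and 132 CPM to 210 and 277 CPM (0.66), whereas Ncapg and Ncaph of the same complex were not called. Mki67, which coats mitotic chromosomes, rose from 510 and 538 CPM to 782 and 722 CPM (0.36). Top2a, topoisomerase II alpha, fell from 430 and 394 CPM to 290 and 356 CPM (-0.51). Of the transcription factors, Mybl2 fell from 696 and 710 CPM to 543 and 573 CPM (-0.49, edgeR adjusted p = 0.00369), and Foxm1 was at -0.04 and not called.

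Of the 18 calls, Cdc25a and Plk1 held under all 16 alternatives. With only the 2 groups in the fit, 2 genes were higher and 5 lower. Over all genes, 5.56% were then higher and 7.66% lower. With each library left out in turn, the median log2 fold change of the set ranged from -0.40 to -0.24. Over all genes, this median ranged from -0.20 to -0.00. Such fits leave a lone library in a group, so their counts of calls are not given.

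**Figure D3:**
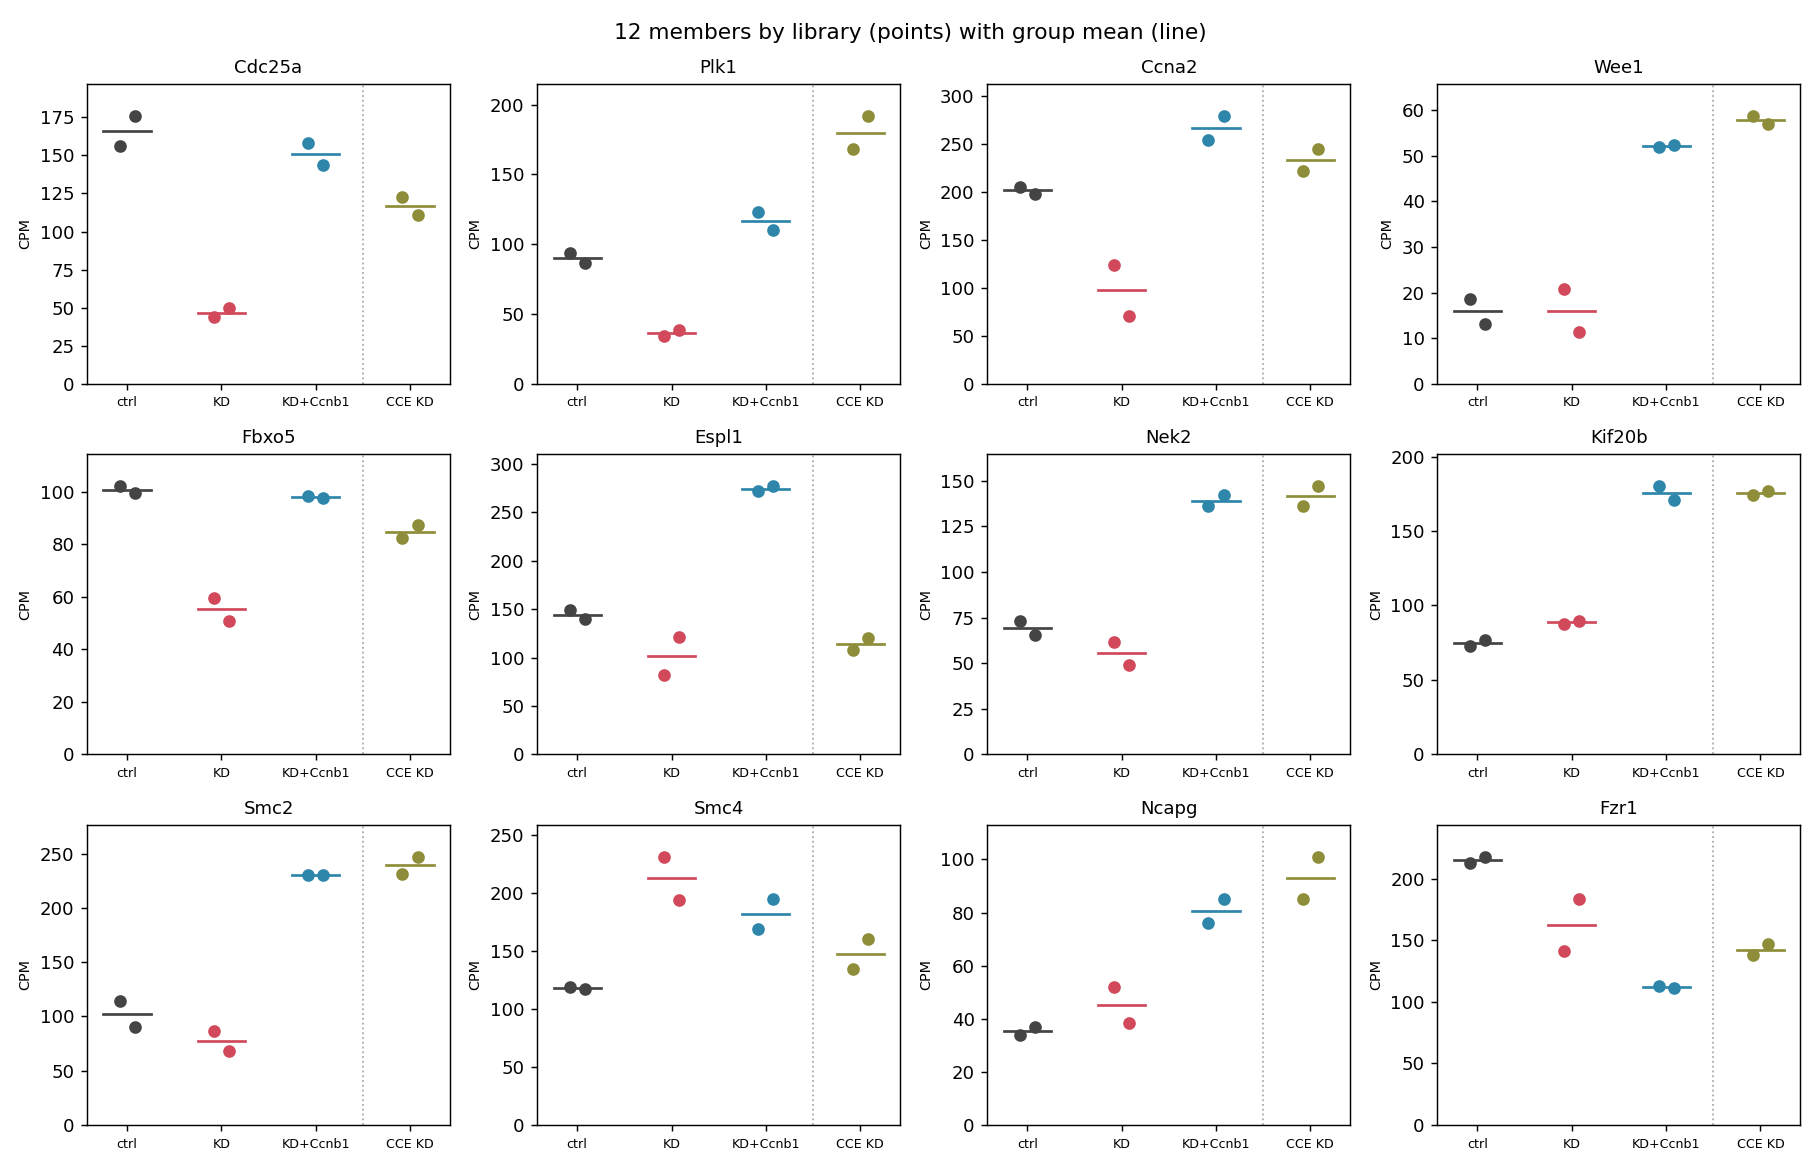
Level of 12 genes in each library (y axis, CPM; points are libraries, lines the group mean) in control (ctrl), labelled knockdown (KD), labelled Ccnb1 (KD+Ccnb1) and, right of the dotted line, the CCE libraries, which had no control analysed here. Cdc25a lies between 43.7 and 50.0 CPM in the pair labelled knockdown and at 144 CPM or more in the other J1 libraries.

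The second comparison set labelled Ccnb1 against labelled knockdown, the 2 J1 groups whose labels give the eIF4A3 knockdown. It shares the libraries labelled knockdown with the first comparison, so the values of both are given for the same genes and not as independent results. Here 19 of the 45 genes were higher (42.2%, against 22.8% of all genes tested) and 4 were lower (8.89%, against 16.0%). Kinases and cyclins of entry, 6 of the 8 cytokinesis genes, and Smc2 and Espl1 were among the higher genes, and the 4 lower genes were Cdc25c and the complex subunits Anapc4, Anapc5 and Cdc16. The median log2 fold change was 0.26, against 0.14 over all genes tested.

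At mitotic entry, Cdc25a had a log2 fold change of 1.77 (SE 0.13, edgeR adjusted p = 0.000617) and Plk1 of 1.76 (SE 0.15, edgeR adjusted p = 0.000795). Wee1, which opposes the Cdc25 enzymes, stood at 20.7 and 11.4 CPM in the pair labelled knockdown and 51.9 and 52.3 CPM in the pair labelled Ccnb1. The 2 groups lay well apart, at a log2 fold change of 1.77 (SE 0.36, edgeR adjusted p = 0.014). Ccna2 rose from 124 and 70.9 CPM to 254 and 279 CPM (1.53, edgeR adjusted p = 0.00627). Cdc25c, the Cdc25 enzyme best known at mitotic entry, fell by 0.94 on the log2 scale, from 40.7 and 41.1 CPM to 21.1 and 19.2 CPM (edgeR adjusted p = 0.0224). The enzymes of the Cdc25 family thus differed, with Cdc25b at -0.13 and not called.

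Nek2, which splits the centrosomes, stood at 61.8 and 49.2 CPM in the pair labelled knockdown and 136 and 142 CPM in the pair labelled Ccnb1 (log2 fold change 1.40 with SE 0.15, edgeR adjusted p = 0.00179). Kif11 rose from 81.2 and 84.0 CPM to 145 and 153 CPM (0.93). Plk4, the kinase that starts centriole duplication, was at 13.6 and 28.6 CPM against 49.7 and 50.3 CPM, and with a log2 fold change of 1.33 it narrowly missed the threshold (edgeR adjusted p = 0.0524). The groups did not overlap for any of these 3 genes. Among the 45, this held for 25 genes in the higher and 8 in the lower direction, so it does not set the 3 apart.

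In the exit machinery, Espl1 stood at 81.9 and 121 CPM in the pair labelled knockdown and 272 and 277 CPM in the pair labelled Ccnb1 (log2 fold change 1.52 with SE 0.19, edgeR adjusted p = 0.00284). Fbxo5 rose from 59.6 and 50.9 CPM to 98.4 and 97.6 CPM (0.91), and Cdc20 from 147 and 179 CPM to 207 and 208 CPM (0.43, edgeR adjusted p = 0.0358). Of the 6 subunits of the complex among the 45 genes, Cdc27 was the one called higher. It rose from 68.2 and 120 CPM to 161 and 170 CPM (0.90, edgeR adjusted p = 0.044), and this call was lost under 9 of the 16 alternatives. Once GC content and length entered the fit as an offset, Cdc27 was at 0.10 (edgeR adjusted p = 0.809), Anapc1, Anapc4, Anapc5 and Cdc16 were lower, and 0 of the 6 were higher. Without it, Anapc4 fell from 56.6 and 65.9 CPM to 27.8 and 30.5 CPM (-0.99, edgeR adjusted p = 0.0103). Cdc16 fell from 99.6 and 104 CPM to 57.7 and 63.3 CPM (-0.67), and Anapc5, from 256 and 299 CPM to 176 and 194 CPM (-0.50). Anapc1 and Cdc23, at 0.11 and 0.09, were not called without the offset.

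Of the 8 cytokinesis genes, 6 rose (75.0%, against 22.8% of all genes), from Kif20a at 0.77 to Ect2 at 1.50. Kif20a, a kinesin of the central spindle, rose from 88.2 and 120 CPM to 171 and 164 CPM (edgeR adjusted p = 0.0189). Ect2 stood at 48.4 and 26.4 CPM in the pair labelled knockdown and 95.0 and 105 CPM in the pair labelled Ccnb1 (edgeR adjusted p = 0.0123). Kif20b, a kinesin of the midbody, stood at 87.8 and 89.5 CPM against 180 and 171 CPM, with close libraries on both sides (log2 fold change 1.07 with SE 0.10, edgeR adjusted p = 0.00126). Racgap1 rose from 50.9 and 80.9 CPM to 132 and 120 CPM (1.02), Prc1 from 75.3 and 94.0 CPM to 147 and 145 CPM (0.86), and the scaffold Anln from 66.8 and 103 CPM to 152 and 140 CPM (0.86). Counts of Kif20a can be shared with Cdc23, since their transcripts share 979 bases and the strand handling is not given in the sources used here. The same applies to Prc1 with Rccd1 (670 bases), Ncapg with Lcorl (701 bases) and Ccna2 with Exosc9 (301 bases), each at 100% identity. Aurkb and Kif23, at -0.17 and 0.50, were not called.

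Condensin subunits differed among themselves. Smc2 stood at 86.6 and 68.1 CPM in the pair labelled knockdown and at 230 and 230 CPM in the pair labelled Ccnb1 (log2 fold change 1.65 with SE 0.16, edgeR adjusted p = 0.0014). Ncapg rose from 51.8 and 38.4 CPM to 76.1 and 85.0 CPM (0.92, edgeR adjusted p = 0.0178). Smc4, which pairs with Smc2 in every condensin, was at 231 and 194 CPM against 169 and 195 CPM and was not called (-0.15). Ncapd2 was lower in each library labelled Ccnb1 without passing the test (-0.47, edgeR adjusted p = 0.0598). Mybl2 rose from 543 and 573 CPM to 665 and 647 CPM (0.31, edgeR adjusted p = 0.0107).

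Of the 23 calls, Cdc25a, Plk1, Nek2, Espl1 and Smc2 held under all 16 alternatives. With only the 2 groups in the fit, 14 genes were higher and 2 lower. Over all genes, 16.9% were then higher and 11.9% lower. With each library left out in turn, the median log2 fold change of the set ranged from 0.31 to 0.41. Over all genes, this median ranged from 0.06 to 0.29. Such fits leave a lone library in a group, so their counts of calls are not given.

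Transcript GC content and length moved with the fold changes in the 2 comparisons with labelled Ccnb1. In labelled knockdown against control, the Spearman correlations over all genes were 0.08 with GC content and 0.09 with length. Across the 45 genes they were -0.25 and 0.14 there. Across all 14072 tested genes with these properties, the Spearman correlation of the log2 fold change of labelled Ccnb1 against labelled knockdown was -0.29 with GC content and 0.18 with length, as a description across genes that share libraries. Across the 45 genes it was -0.20 and 0.18. With an offset for both properties in each library, 13 genes were higher and 10 lower, in place of 19 and 4. Over all genes, 18.4% were then higher and 15.2% lower, and the median moved from 0.14 to 0.02. Cytokinesis genes then had 2 higher, Prc1 and Racgap1, and 0 lower, and condensation genes 1 higher, Smc2, and 4 lower. Those 4 were Smc4 (-0.85), Ncapd2 (-0.57), Mki67 (-0.47) and Top2a (-0.45). Kif20b, at 1.07 without the offset, stood at 0.25 with it (edgeR adjusted p = 0.11).

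**Figure D4:**
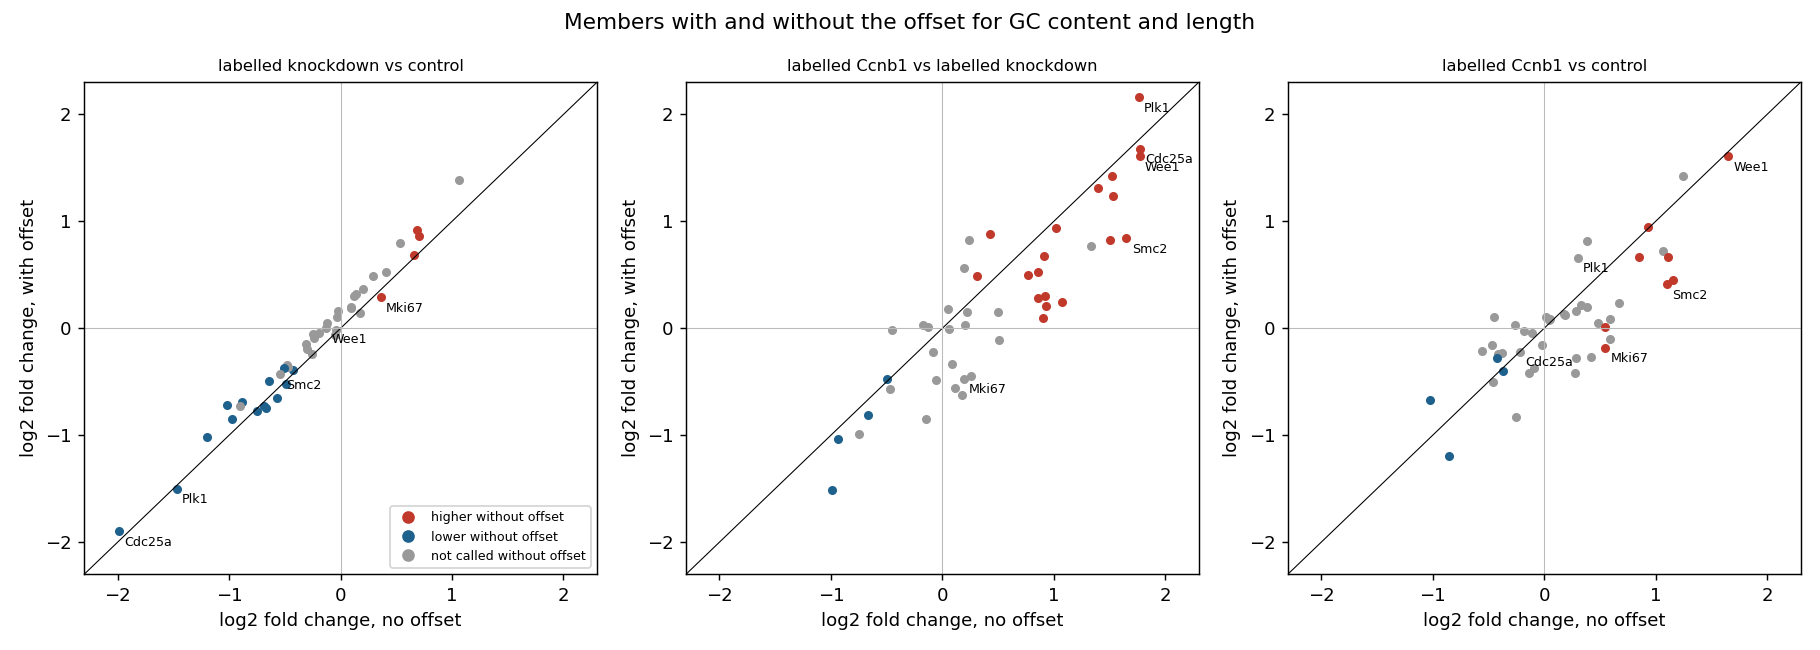
Log2 fold change of each of the 45 genes without (x axis) and with (y axis) an offset for GC content and length, in the 3 comparisons; points are genes, coloured by the call without the offset, and the diagonal marks equal values. In labelled Ccnb1 against labelled knockdown, Cdc25a, Plk1, Wee1 and Smc2 stay above 0 and Mki67 falls below 0.

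The third comparison set labelled Ccnb1 against control, the groups that differ in both constructs by their labels, and shares libraries with the other 2 comparisons. Of the 45 genes, 8 were higher (17.8%, against 9.35% of all genes tested) and 4 were lower (8.89%, against 10.5%). The higher genes were Wee1, Nek2, Espl1, Kif20b and 4 genes of the condensed chromosome, Smc2, Smc4, Ncapg and Mki67. The lower genes were the coactivator Fzr1, cyclin F and the subunits Anapc4 and Anapc5. The median log2 fold change was 0.19, against 0.07 over all genes tested.

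Wee1 stood at 18.6 and 13.1 CPM in the control pair and 51.9 and 52.3 CPM in the pair labelled Ccnb1 (log2 fold change 1.65 with SE 0.35, edgeR adjusted p = 0.0278). Cdc25a overlapped between the groups (-0.22), and Plk1, at 0.30, was not called on its own counts. With Plk-ps1 added, Plk1 was at 153 and 150 CPM in the control pair against 242 and 232 CPM and was called (0.57, edgeR adjusted p = 0.0444). Nek2 rose from 73.3 and 65.7 CPM to 136 and 142 CPM (0.93, edgeR adjusted p = 0.0112).

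Fzr1 had the lowest value of the set, at 213 and 218 CPM in the control pair and 113 and 111 CPM in the pair labelled Ccnb1 (log2 fold change -1.02 with SE 0.14, edgeR adjusted p = 0.0076), with labelled knockdown between them. Anapc4 fell from 51.6 and 48.1 CPM to 27.8 and 30.5 CPM (-0.85), and Anapc5 from 232 and 237 CPM to 176 and 194 CPM (-0.42). Ccnf stood at 344 and 350 CPM in the pair labelled Ccnb1, at the level of labelled knockdown and below control (-0.37, edgeR adjusted p = 0.0124). Espl1 rose from 149 and 140 CPM to 272 and 277 CPM (0.85, edgeR adjusted p = 0.028). The RNA of Espl1 was thus below control in labelled knockdown and above control in labelled Ccnb1. The first of these calls (edgeR adjusted p = 0.0467) was lost under 9 of the 16 alternatives. The second was lost under 6, among them both fits with the GC and length offset.

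Kif20b rose from 72.8 and 76.6 CPM to 180 and 171 CPM (log2 fold change 1.16 with SE 0.10, edgeR adjusted p = 0.00208). It was the one cytokinesis gene of 8 called (12.5% higher, against 9.35% of all genes). Smc2 rose from 114 and 89.8 CPM to 230 and 230 CPM (1.10), Ncapg from 33.8 and 36.9 CPM to 76.1 and 85.0 CPM (1.11), and Smc4 from 119 and 117 CPM to 169 and 195 CPM (0.55). Mki67 stood at 794 and 825 CPM against 510 and 538 CPM (0.55, edgeR adjusted p = 0.00408). Under the GC and length offset, Mki67 was at -0.18 (edgeR adjusted p = 0.131), and none of the 4 chromosome genes was called higher. The Spearman correlation across the 45 genes was -0.50 with GC content and 0.39 with length, against -0.33 and 0.37 across all genes.

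Of the 12 calls, 0 held under all 16 alternatives. Each of the 12 calls was lost in every fit that left out 1 control library or 1 library labelled Ccnb1. Far fewer of all genes tested were called in those fits too. With each library left out in turn, the median log2 fold change of the set ranged from 0.14 to 0.27. Over all genes, this median ranged from 0.06 to 0.11. Such fits leave a lone library in a group, so their counts of calls are not given. With only the 2 groups in the fit, 22 genes were higher and 15 lower. Over all genes, 31.4% were then higher and 30.7% lower.

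**Figure D5:**
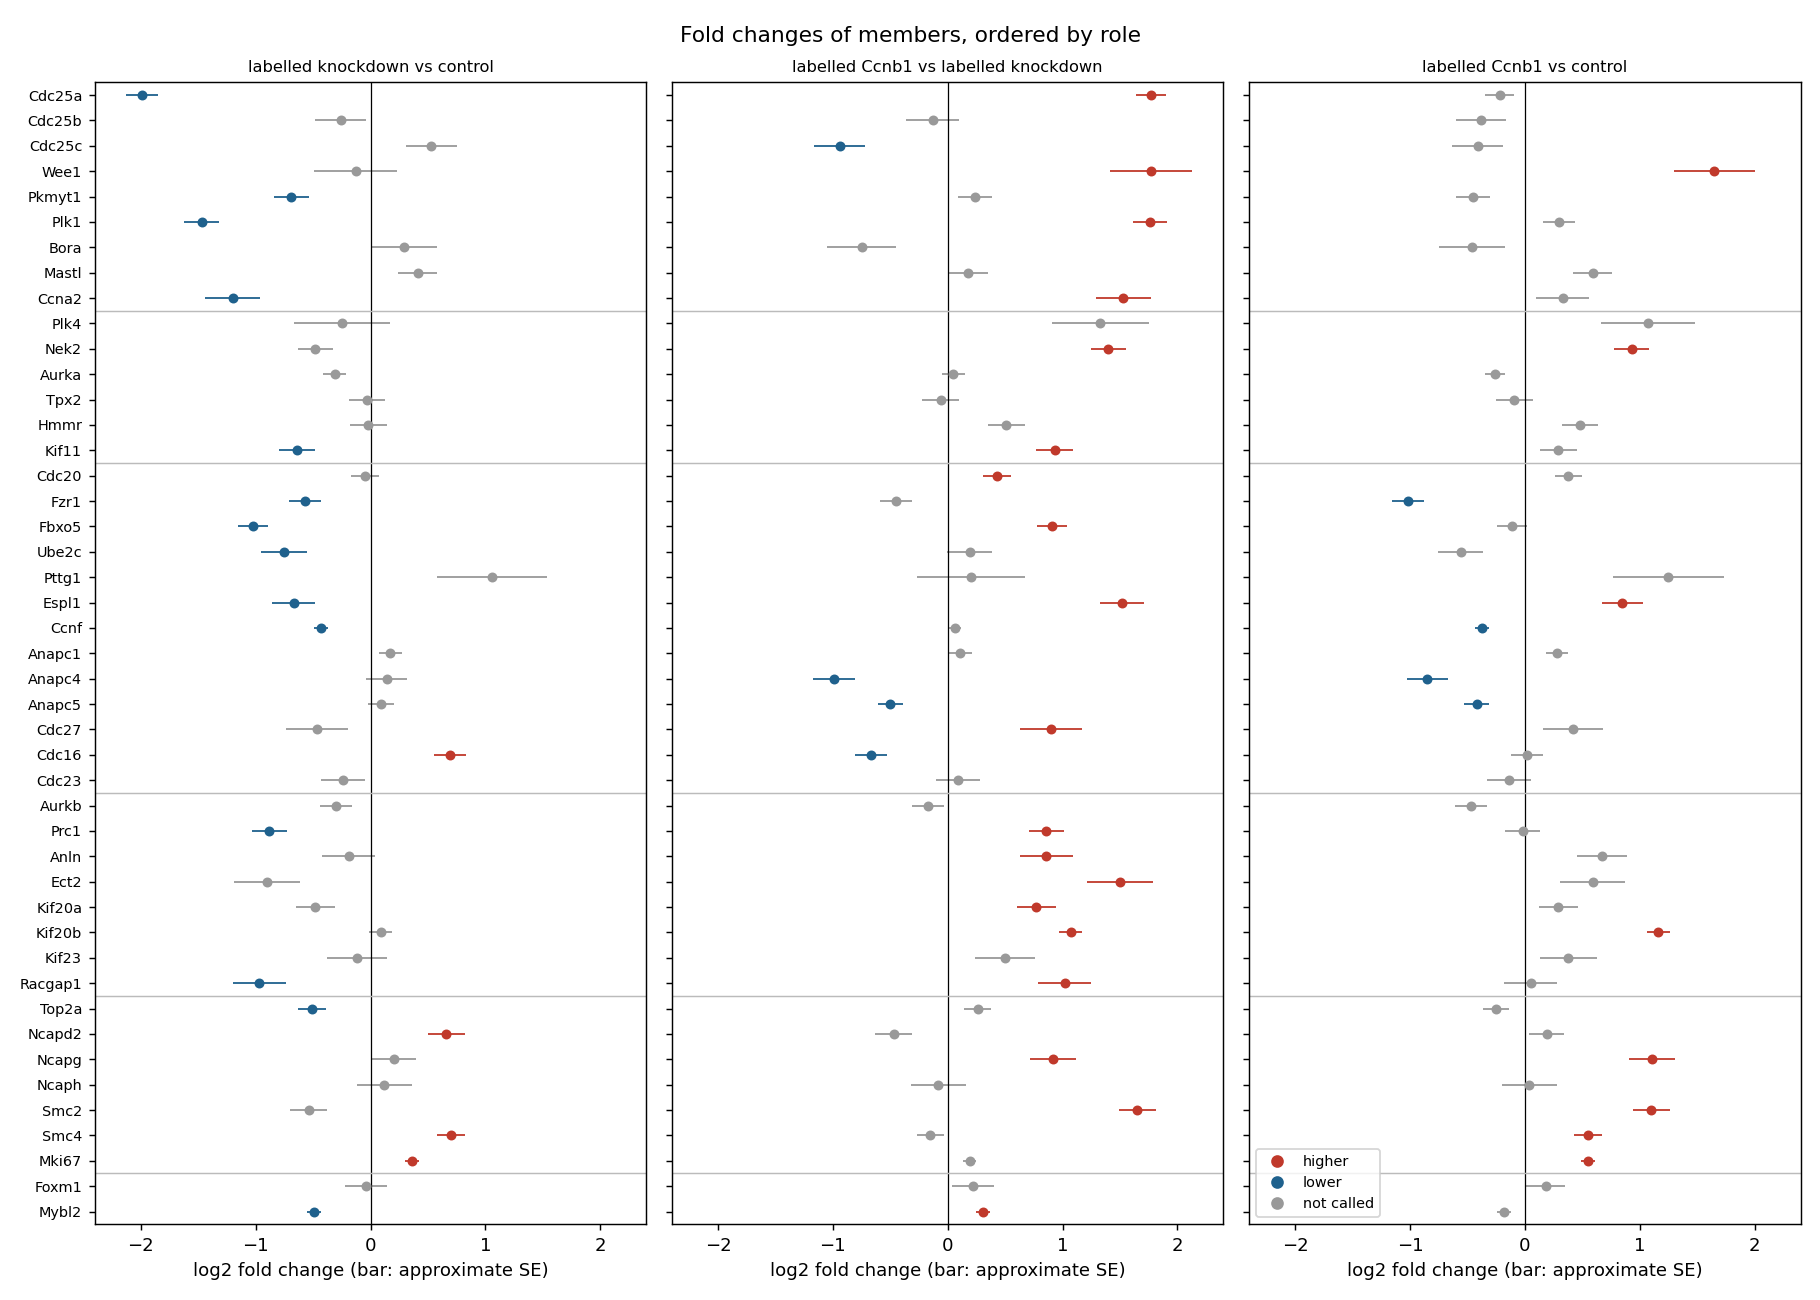
Log2 fold change (x axis) of each of the 45 genes in the 3 comparisons, with the approximate SE as a bar and genes ordered by role (grey lines part the roles). Red points are called higher and blue points lower: 4 and 14 in labelled knockdown against control, 19 and 4 in labelled Ccnb1 against labelled knockdown, and 8 and 4 in labelled Ccnb1 against control.

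Set beside the promoter motifs, the 21 genes with a CHR had median log2 fold changes of -0.43 in labelled knockdown against control, 0.86 in labelled Ccnb1 against labelled knockdown and 0.38 in labelled Ccnb1 against control. The 13 genes with a window but no CHR match had medians of 0.09, 0.11 and 0.02. In the fit offset for GC content and length, the medians were -0.37, 0.30 and 0.09 with a CHR and 0.14, -0.02 and -0.22 without. The kinetochore and spindle checkpoint genes, with a CHR in 58.3% of their windows, had medians of 0.18 and -0.05 in the first 2 comparisons without the offset. In labelled Ccnb1 against labelled knockdown, 12 of the 21 were higher and 0 lower, against 4 higher and 3 lower of the 13, and 22.8% and 16.0% of all genes. In a fit offset for GC content and length, 7 of the 21 were higher and 3 lower, the last being Top2a, Mki67 and Ncapd2, against 3 higher and 5 lower of the 13, and 18.4% and 15.2% of all genes. Of the genes with a CHR whose stretches are shown above, Plk1, Cdc20, Espl1, Kif11 and Ncapg were higher in labelled Ccnb1 against labelled knockdown without the offset. The calls of Kif11 and Ncapg were lost with it. Ube2c, Ccnf and Top2a, at 0.19, 0.06 and 0.26, were not called without the offset. Of the genes shown with no CHR match, Cdc25a and Mybl2 were higher and Anapc4 and Cdc16 lower. Cdc25a, which has no CHR match, was among the genes with the largest differences in both comparisons with labelled knockdown. These are descriptions with no test.

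The rest of the pathway was described from lists of related genes. Of 5 genes for cyclin B and Cdk1 with its Cks subunits, 4 fell in labelled knockdown against control. Cks1b stood at 133 and 136 CPM in the control pair and 40.9 and 39.8 CPM in the pair labelled knockdown (log2 fold change -1.89, edgeR adjusted p = 0.000579). Cks2 was at -1.07 and Cdk1 at -0.62, with 82.7 and 70.0 CPM against 56.2 and 54.2 CPM. In labelled Ccnb1, Cks1b and Cdk1 were higher than in labelled knockdown (1.19 and 0.50), 40.0% of the list against 22.8% of all genes. Cks1b remained below control (-0.70, edgeR adjusted p = 0.0104), 20.0% of the list against 10.5% of all genes.

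Of 15 genes listed for MuvB, DREAM and NF-Y, the readers of the CHR and the CCAAT box, and for the E2F activator E2f1, 5 fell (33.3%) and 2 rose (13.3%) in labelled knockdown against control, where 17.9% and 11.0% of all genes did. E2f4, the repressor E2F of DREAM, fell from 327 and 364 CPM to 143 and 119 CPM (-1.55, edgeR adjusted p = 0.000835), and its partner Tfdp1 was at -1.28. Rbbp4, a histone-binding subunit of MuvB, was at -0.78 (edgeR adjusted p = 0.00172). Rbl2 (p130), the pocket protein of DREAM, rose from 12.0 and 22.1 CPM to 88.4 and 77.3 CPM (2.11, edgeR adjusted p = 0.00733). In labelled Ccnb1 against labelled knockdown, 6 of the 15 rose (40.0%, against 22.8% of all genes) and 3 fell (20.0%, against 16.0%), with E2f4 at 1.20, Tfdp1 at 0.74 and Rbl2 at -1.02.

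Of 14 further kinesin and cytokinesis genes, 3 fell in labelled knockdown against control and 0 rose, a share of 21.4% lower against 17.9% of all genes. Birc5 (survivin), a partner of Aurora B, fell from 202 and 202 CPM to 156 and 150 CPM (-0.56, edgeR adjusted p = 0.00667). Cep55, which acts at abscission, fell from 200 and 224 CPM to 151 and 106 CPM (-0.88, edgeR adjusted p = 0.0184), and it rose in labelled Ccnb1 against labelled knockdown (0.92). Of 9 further subunits of the anaphase-promoting complex, 1 rose and 1 fell in the first comparison, Anapc7 (0.41) and Anapc16 (-1.18). Each was 11.1% of the list, against 11.0% of all genes higher and 17.9% lower. In the second, Anapc16 rose (0.82, 11.1% of the list, against 22.8% of all genes) and 4 fell (44.4%, against 16.0%), among them Anapc7 (-0.73) and Anapc15 (-0.94).

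Of 6 genes of the phosphatase PP2A and its mitotic inhibitors, 2 fell (33.3%, against 17.9% and 16.0% of all genes) and 0 rose in each of these 2 comparisons. They were the catalytic subunit Ppp2ca (-0.46) and the inhibitor Ensa (-0.59) in the first, and the regulatory subunit Ppp2r2d (-1.22) and the scaffold Ppp2r1a (-0.44) in the second. Against control, labelled Ccnb1 had lower Ppp2r2d (-0.98), Ppp2ca (-0.39) and Ppp2r1a (-0.40), 50.0% of the list against 10.5% of all genes. Of 3 further condensin subunits, 1 rose in the first comparison, Ncaph2 (0.47, 33.3% of the list against 11.0% of all genes). In the second, Ncapg2 rose (1.22) and Ncaph2 fell (-0.86), each 33.3% of the list, against 22.8% and 16.0% of all genes.

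Of 26 kinetochore and spindle checkpoint genes, 4 rose and 4 fell in labelled knockdown against control, 15.4% each against 11.0% and 17.9% of all genes, with a median log2 fold change of 0.18. In labelled Ccnb1 against labelled knockdown, 6 rose (23.1%, against 22.8%) and 2 fell (7.69%, against 16.0%), with a median of -0.05. Of 30 replication genes, 4 rose (13.3%) and 12 fell (40.0%) in the first comparison, and 9 rose and 10 fell in the second, where 22.8% and 16.0% of all genes did. The difference between these sets and the 45 genes was not tested.

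In the CCE libraries, which were processed otherwise, levels are set side by side with those of J1 and no test was made. Reads outside genes made up 48.5% and 49.5% there, against 11.9% to 13.9% in J1. Per kilobase, Cdc20 led at 315 ± 18.4 CPM per kb (SD, n = 2), with 541 and 588 CPM, and Mybl2 followed at 148 ± 14.8. Anln, at 339 and 368 CPM, and Ect2, at 256 and 246 CPM, stood above every J1 library. Pkmyt1, at 15.1 and 16.8 CPM, and Mki67, at 234 and 244 CPM, stood below every J1 library. Cdc25a was at 123 and 111 CPM and Plk1 at 168 and 192 CPM, each above both J1 libraries labelled knockdown. The fibroblast markers summed to 163 and 238 CPM in CCE, of which Acta2 made up 133 and 213 CPM. Thy1 of the same list, at 1.08 and 0.547 CPM, stood below every J1 library. The embryonic stem cell markers summed to 3752 and 4119 CPM.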

How the data were processed

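Per Ensembl gene and library, the authors deposited raw read counts, in 8 files whose 5 summary rows name no gene and were left out. Per the submitters' processing notes, the mm9 build was used, and the tools listed, without roles or settings, are HTSeq 0.11.2, Bowtie2 2.3.4.3, edgeR 3.26.8 and SAMtools 1.9. Unaligned reads are 0% in the CCE files, so the 2 lines were processed differently and CCE entered no test. Reads were either single-end (100 bp) or paired-end (150 bp), and the labels do not say which for each library.

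Levels are counts per 1000000 (CPM) over all gene rows. Tests were edgeR 4.0.16 quasi-likelihood F tests in R 4.3.3, two-sided, on TMM-scaled counts of genes that passed filterByExpr. The 6 J1 libraries shared 1 fit without a replicate block, and p-values were adjusted by Benjamini-Hochberg over 14462 genes and called at 0.05. The SE is the size of the log2 fold change divided by the root of the F statistic. The script was tested on simulated data. DESeq2 1.42.0, other filters and scalings, the replicate block, an offset for GC content and length and each library left out were alternatives. Counts of near-identical pseudogenes were added as an alternative chosen after seeing the data, from a BLAST 2.17.0 search at 90% identity over 300 bases. Lengths and GC content came from GENCODE M21, and promoter sequences from RefSeq (GRCm38.p6). A count of 0 allows up to 3 counts, which covers counting error only. The 45 genes and the lists were chosen with earlier results of these data known. All 45 could be named, and values in every library were given for the called genes with the largest log2 fold changes in each role, up to 6. Of the pathway lists, named genes come from up to 3 called genes with the smallest adjusted p in each comparison, and some of these are not reported here. Rbl2 and E2f1 were named after their values were seen.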

Additional observations from a re-analysis of the deposited data

How the results depend on the processing

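Counts of higher and lower genes among the 45 are given in that order, and the cause of each change below was not tested except where stated. In labelled knockdown against control (4 and 14), only the 2 groups in the fit gave 2 and 5, with 5.56% and 7.66% of all genes called. The replicate block gave 9 lower (11.5% of all genes), and the block with the GC and length offset 8 lower (9.24%). In labelled Ccnb1 against labelled knockdown (19 and 4), the DESeq2 test gave 7 lower (13.9% of all genes) and only the 2 groups 2 lower (11.9%). The offset gave 10 lower (15.2%), and the block with the offset 12 and 7 (12.1% and 11.0%). In labelled Ccnb1 against control (8 and 4), the DESeq2 test gave 14 and 8 (13.3% and 11.9% of all genes). Only the 2 groups gave 22 and 15 (31.4% and 30.7%). The block gave 2 lower (7.47%), the offset 5 higher (5.37%) and the block with the offset 2 higher (2.81%). Counts divided by each group's spread over Poisson noise gave 24 and 13 (35.3% and 31.1%). Without 1 library, higher and lower counts ranged from 0 to 9 and 2 to 26 in the first comparison, from 6 to 28 and 0 to 8 in the second, and from 0 to 24 and 0 to 13 in the third, in fits where a lone library is assumed to vary like the other groups. The share called over all genes also changed widely in those fits. Mki67 in labelled Ccnb1 against control went from 0.55 to -0.18 with the offset and to -0.18 with the block and the offset, uncalled in both (edgeR adjusted p = 0.131 and 0.224). Replicate numbers did not pair the libraries, with correlations of their deviations of -0.0129, -0.0107 and 0.0174 over 11096 genes, so the block is no evidence for or against a call. The lowest count of a member in a J1 library was 41, for Wee1, so counting error is widest there, and the spread between the 2 libraries labelled knockdown was 22 times Poisson noise.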
